A study of Hylyphantes graminicola with 5 samples.

Results

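*Tdc2* (evm.TU.CTG-407.1) and *Dbh* (evm.TU.CTG-1462.1, an identifier that the study also pairs with the name *Tbh*) are the 2 octopamine synthesis genes followed here, taken by identifier from 19195 counted genes of the web-building spider *Hylyphantes graminicola*. Single cells of dissected adult brains were sequenced by a droplet method in which each captured messenger RNA molecule carries a unique molecular identifier (UMI). There were 3 female and 2 male libraries, each from 35 to 40 pooled brains of adults of mixed age, and the labels name no treatment, strain or genotype. The study describes the libraries as biological replicates, and each p-value measures the spread between these pools of brains.

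Octopamine is the invertebrate amine closest to vertebrate noradrenaline, and in insects it sets arousal, flight and egg laying. *Tdc2* encodes tyrosine decarboxylase, which turns tyrosine into tyramine, and tyramine β-hydroxylase, encoded by *Tbh*, turns tyramine into octopamine. Dopamine β-hydroxylase (*Dbh*) is the related vertebrate enzyme, which turns dopamine into noradrenaline. Whether the spider enzyme acts on tyramine, dopamine or both is not known from these data. Dopamine itself is made from tyrosine by tyrosine hydroxylase (*Th*) and aromatic amino acid decarboxylase (*Ddc*), serotonin needs tryptophan hydroxylase (*Trh*), and the vesicular monoamine transporter (*Vmat*) loads all of these amines into vesicles. A neuron that carries *Dbh* can therefore be met with *Tdc2* or with *Th* and *Ddc*, and the combination was read here cell by cell.

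Of 40233 deposited barcodes, 31145 passed the limits on UMIs, genes and mitochondrial share, with medians of 1925 to 3096 UMIs per cell and totals of 11353727 to 34543696 UMIs per library. For 1998 cells of female replicate 3 the numbering of clusters by the study was available, and all other cells took it from their neighbours, with both octopamine genes and 157 other genes left out of that step. Clusters 22 and 39, which the study describes as monoaminergic neurons, then held 278 and 46 cells, and a held-out check returned 13 of 15 annotated cells to cluster 22 and 3 of 5 to cluster 39. Over all clusters it returned 1405 of the 1998 cells (70.3%), and none of those of clusters 11, 13, 17, 23, 26, 34, 37 and 40. The check covered female replicate 3 alone. The study named both clusters by *Vmat*, but as numbered here cluster 39 held 1 *Vmat* UMI in its 46 cells. Cluster 22 held 22 in its 278 cells. *Vmat* was thus found in 2.17% and 7.19% of their cells, and by itself it does not mark cluster 39 here. The 4 neuronal markers (*brp*, *nSyb*, *Syt1* and *elav*) summed to between 7474 and 13710 UMIs per 1000000 UMIs (CPM) in the cells of both clusters. These sums held 18088 UMIs, of which *Syt1* gave 13080 in cluster 22 and 2422 in cluster 39. In cluster 39, *Syt1* had 5535 CPM, against 3503 CPM in glia and 9155 CPM in neurons outside both clusters. There *elav* had 382 CPM, against 460 and 1130 CPM in the same groups. The markers *brp* (92.9 CPM) and *nSyb* (63.7 CPM) lay near glia (116 and 59.0 CPM) and below those neurons (190 and 145 CPM). In the cells of both clusters together, 5 glial markers summed to between 17 and 45.8 CPM and 5 hemocyte markers to between 11.3 and 25.6 CPM. The 5 fat body markers were not as low, at 366 to 550 CPM against 3459 to 5753 CPM in fat body cells and 263 to 447 CPM in hemocytes. One of them, *FASN1*, was scarcer in fat body cells (26.1 ± 15.2 CPM) than in neurons outside both clusters (141 ± 27.9 CPM). Its mean over the cells of cluster 22 was 230 ± 67.6 CPM. The remaining markers were highest in fat body cells, among them *Ahcy* (3057 CPM, against 43.7 CPM for cluster 22). The sum is therefore not a measure of fat body RNA alone. Barcodes occurring in more than 1 library numbered 88 among kept cells, and 4 of 501 cells of both clusters or with a UMI of either gene had such a barcode. Male replicate 2 stood apart from the other 4 libraries in the ratio of both genes, and values without it are given wherever it changes a direction.

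Both genes were rare in the whole brain and concentrated in a small set of neurons. *Tdc2* had 63, 68 and 389 UMIs in female replicates 1, 2 and 3 and 261 and 87 UMIs in male replicates 1 and 2, which made 5.55, 5.19, 11.3, 8.38 and 3.23 CPM (6.72 ± 3.13, SD, n = 5). *Dbh* had between 98 and 771 UMIs in a library, which made 9.86, 7.49, 14.7, 14.5 and 28.7 CPM in the same order (15 ± 8.21, SD, n = 5). *Dbh* exceeded *Tdc2* in each library. Over all kept cells 235 carried *Tdc2* and 328 carried *Dbh*, and 157 and 217 of these lay in clusters 22 and 39, which made up only 0.936% to 1.24% of the cells of a library. Those clusters held 83.0% ± 10.6 of the *Tdc2* UMIs and 85.8% ± 4.07 of the *Dbh* UMIs of a library (SD, n = 5). In sums over a library, fewer cells with a gene and less RNA per cell cannot be told apart, so the levels within the clusters and per cell follow.

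*Tdc2* belonged to cluster 22 and *Dbh* to both clusters. In cluster 22, *Tdc2* had 441, 296, 747, 638 and 203 CPM in female replicates 1 to 3 and male replicates 1 and 2 (465 ± 228, SD, n = 5), above the next cluster in all 5 libraries. In cluster 39 it had 3 UMIs, all in 1 cell of male replicate 1, and 0 in the other 4 libraries. Over all cells of cluster 39, 3 UMIs correspond to 8.22 CPM, far below the level of cluster 22. *Dbh* had 561, 415, 839, 930 and 1267.5 CPM in cluster 22 (802 ± 333, SD, n = 5). It had 358.1, 651, 942 and 2514 CPM in cluster 39 of the 4 libraries with at least 3 such cells (1116 ± 962, SD, n = 4, female replicate 1 having only 2 cells), so the order of both clusters was not the same in all libraries and *Dbh* was higher in cluster 39 in 2 of 4. Clusters were drawn from the same counts, and these levels are a description without a test.

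**Figure D1:**
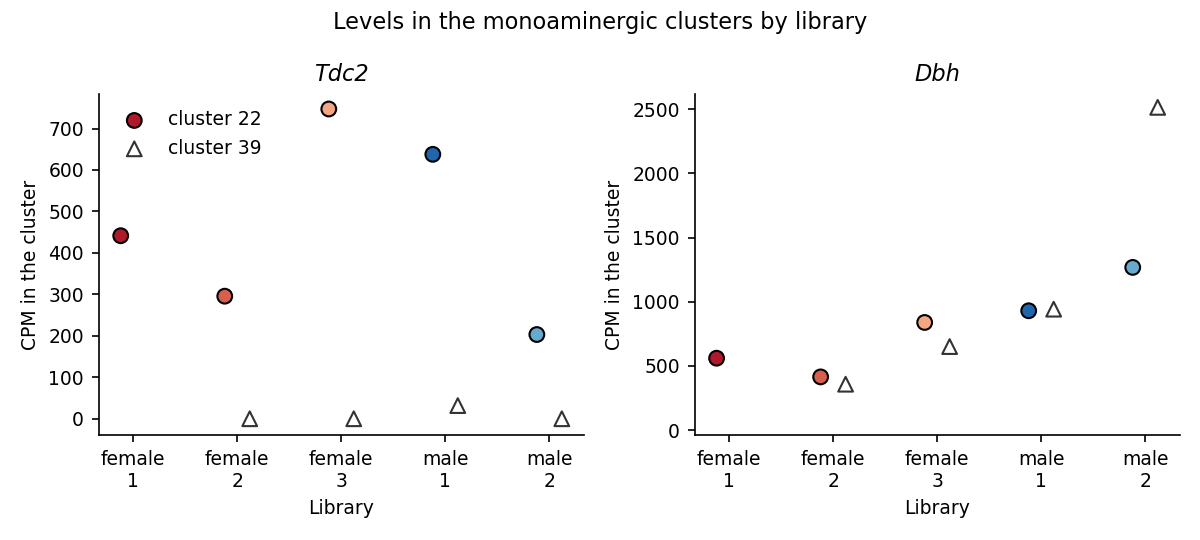
Level of *Tdc2* (left) and *Dbh* (right) in CPM (linear axes) in cluster 22 (filled circles, coloured by library) and cluster 39 (open triangles, the 4 libraries with at least 3 such cells). *Tdc2* lay between 203 and 747 CPM in cluster 22 and at 0 or 31.8 CPM in cluster 39, while *Dbh* lay between 358.1 and 2514 CPM in both.

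Beyond these clusters neither gene marked another cluster as numbered here. Of 40 clusters ordered by level, *Tdc2* was detected with at least 3 UMIs in 15 and *Dbh* in 16, and the only neighbours in either order that were apart in every library were cluster 22 and the cluster after it. The next cluster in the *Tdc2* order was cluster 32, at 9.93 ± 22.2 CPM (SD, n = 5), where all 7 UMIs came from 2 cells of male replicate 1. For *Dbh* it was cluster 29, at 17.6 ± 39.4 CPM, where all 9 UMIs came from 1 cell of male replicate 2. The held-out check returned 4 of 10 annotated cells to cluster 32 and 21 of 22 to cluster 29. The median over the other 38 clusters was 0.124 CPM for *Tdc2* and 0.750 CPM for *Dbh*. Glia, which should make no octopamine, had 2 *Tdc2* and 4 *Dbh* UMIs in 775 cells, hemocytes 9 and 13 UMIs in 1181 cells, and the 230 fat body cells 0 and 10 UMIs, all of the latter in female replicate 3. No *Tdc2* UMI in 230 fat body cells allows a level of up to 1.93 CPM.

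**Figure D2:**
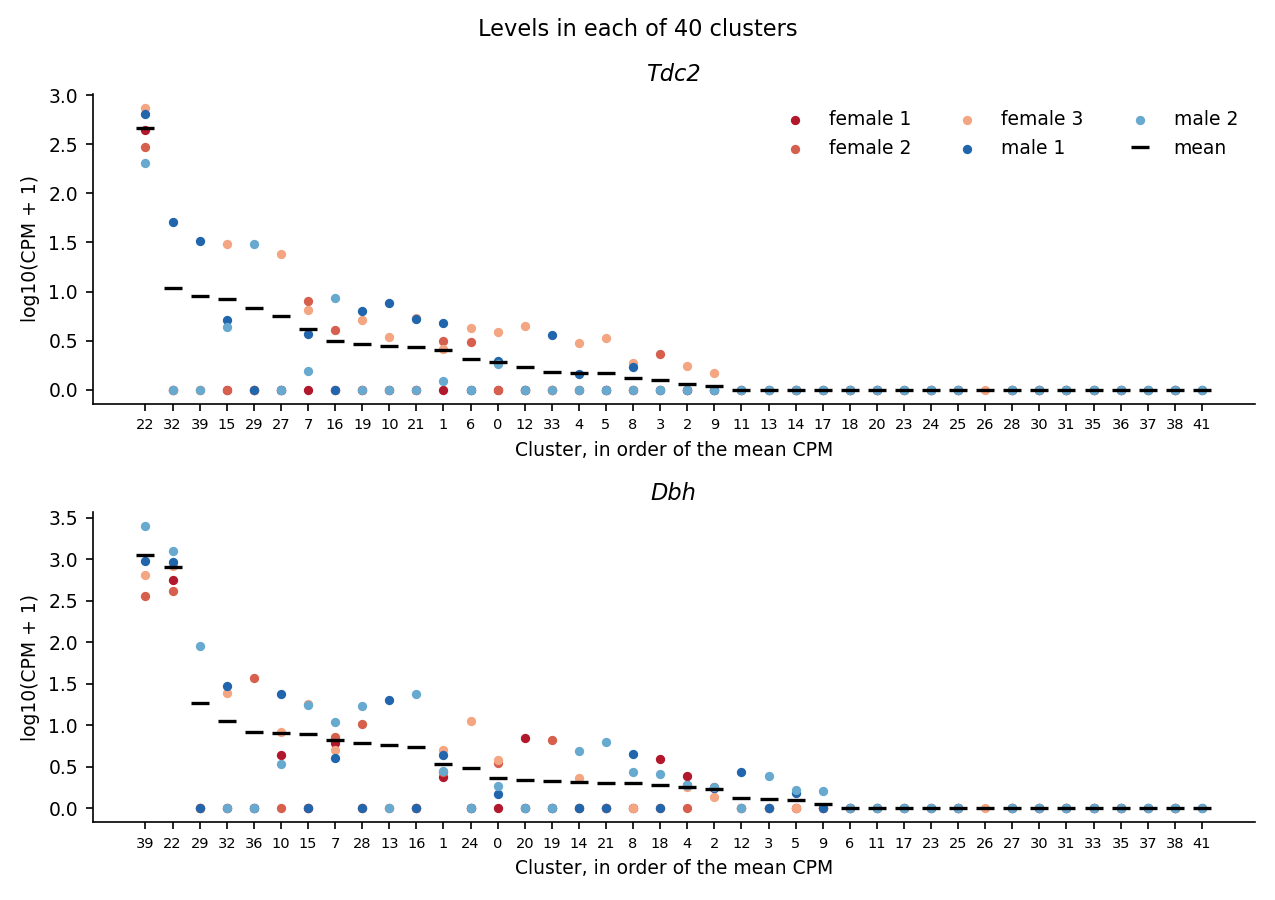
Level of *Tdc2* (top) and *Dbh* (bottom) in each of 40 clusters as log10(CPM + 1), in order of the mean, with a point per library and a bar for the mean over libraries with at least 3 cells. *Tdc2* was highest in cluster 22 and *Dbh* in clusters 39 and 22, and the cluster next in each order rested on a single library.

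Within clusters 22 and 39, UMIs of both genes were found in 126 of 324 cells, of *Tdc2* alone in 31, of *Dbh* alone in 91 and of neither in 76. The cells with both were 10 of 35, 17 of 48, 38 of 72, 38 of 68 and 23 of 101 in female replicates 1 to 3 and male replicates 1 and 2. Female replicate 3 and male replicate 1 were highest, at 52.8% and 55.9%, and male replicate 2 lowest, at 22.8%, with 43 of its 101 cells carrying neither. Seen from each gene, 80.3% of the cells with *Tdc2* had *Dbh*, and 58.1% of the cells with *Dbh* had *Tdc2*. The clusters differed in this. All 126 cells with both genes lay in cluster 22, while cluster 39 held 43 cells with *Dbh* alone, 1 with *Tdc2* alone and 2 with neither. The median depth was 4552 UMIs in cells with both genes, 2616 in cells with *Tdc2* alone, 5914 in cells with *Dbh* alone and 2970 in cells with neither, so the groups differed in depth.

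**Figure D3:**
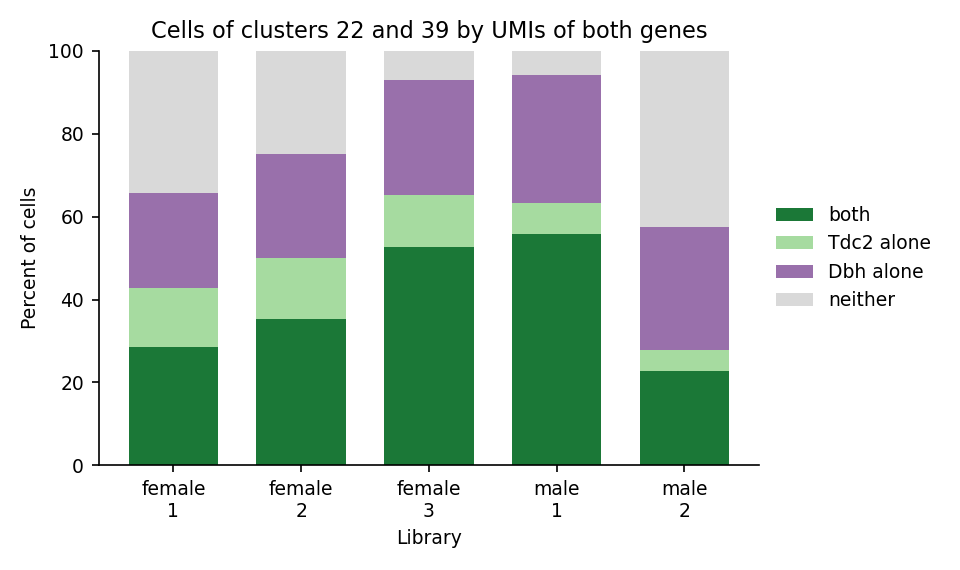
Share of the cells of clusters 22 and 39 (percent, linear axis) with UMIs of both genes, of *Tdc2* alone, of *Dbh* alone or of neither, for each library. Cells with both genes made up 22.8% to 55.9% of a library, and cells with neither were most frequent in male replicate 2, at 42.6%.

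Positive cells of cluster 22 had a median of 3 *Tdc2* UMIs (up to 28) and 5 *Dbh* UMIs (up to 65), and those of cluster 39 a median of 8 *Dbh* UMIs (up to 68). In cluster 22, 84 cells with *Tdc2* and 129 cells with *Dbh* had at least 3 UMIs. Outside the clusters the median was 1 UMI for either gene, and 42 of 78 cells with *Tdc2* and 74 of 111 with *Dbh* had no more than that. In cluster 39, 37 of the 43 cells with *Dbh* had at least 3 UMIs. In hemocytes, which have a median of 2251 UMIs against 3598 in cluster 22, 0.254% of cells had a *Tdc2* UMI and 0.169% a *Dbh* UMI, against 56.1% and 62.6% in cluster 22.

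If the genes were independent within depth classes of each library, 111 cells of clusters 22 and 39 would carry both, and 126 did. The log2 of observed over expected was 0.25 ± 0.27 (SD, n = 5) and above 0 in 5 of 5 libraries (exact two-sided sign-flip test, p = 0.0625, 0.146 after Benjamini-Hochberg adjustment over 7 pairs). The smallest p that 5 libraries can give is 0.0625, so no pair could pass 0.05. Taken over all neurons, where clusters 22 and 39 are a small part, 136 cells had both genes against 3.67 expected. Within the clusters, *Tdc2* was met less with the dopamine genes: 2 cells had *Tdc2* and *Th* against 10.5 expected (log2 -1.50 ± 1.01, below 0 in 4 of 5 libraries, exact p = 0.125) and 10 cells had *Tdc2* and *Ddc* against 28.2 expected (log2 -1.13 ± 0.90, below 0 in 4 of 5, exact p = 0.125). Over all neurons these counts were close to expectation, with 4 cells against 4.10 for *Tdc2* and *Th* (mean log2 -0.47) and 16 against 14.4 for *Tdc2* and *Ddc* (mean log2 0.12). The expected numbers within the clusters did not separate cluster 22 from cluster 39. In cluster 39, 2.17% of cells carried *Tdc2*, 26.1% *Th* and 80.4% *Ddc*. In cluster 22, 56.1% carried *Tdc2* and 9.71% *Ddc*. The part of this difference between the clusters in the low counts was not tested. In the clusters, *Dbh* was met with *Th* in 22 cells against 18.9 expected, with *Ddc* in 54 against 50.2 and with *Vmat* in 21 against 17.2, and *Tdc2* with *Vmat* in 16 against 12.3.

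The 217 cells of the brain with at least 2 *Dbh* UMIs showed both companies of the enzyme. *Tdc2* without *Th* was found in 115 of them, *Th* without *Tdc2* in 22, both in 2 and neither in 78. By library, *Tdc2* was carried by 7 of 16, 11 of 20, 38 of 66, 36 of 57 and 25 of 58 of these cells, in the order given above, and *Th* without *Tdc2* by 0, 1, 5, 10 and 6. *Ddc* was found in 10 of the 117 cells with *Tdc2* and in 52 of the 100 without. The share with *Ddc* was 14.3%, 18.2%, 7.89%, 8.33% and 4% with *Tdc2* and 33.3%, 22.2%, 64.3%, 71.4% and 42.4% without, so it was lower beside *Tdc2* in 5 of 5 libraries and the ranges did not overlap. Of the cells without *Tdc2*, 19 had both *Th* and *Ddc*, 33 had *Ddc* without *Th*, and 45 had neither. With *Th* and *Ddc*, *Dbh* would complete the set from tyrosine to noradrenaline if its enzyme acts on dopamine. Called doublets were part of this group. Within clusters 22 and 39, 22 cells carried *Dbh* and *Th*, and 15 did once called doublets were left out. Of all 324 cells of these clusters, 39 were called doublets. The part of doublets in the combination was not tested. The cells with *Th* and no *Tdc2* held a median of 13 *Dbh* UMIs and those with *Tdc2* and no *Th* a median of 6, at median depths of 10728 and 4864 UMIs.

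**Figure D4:**
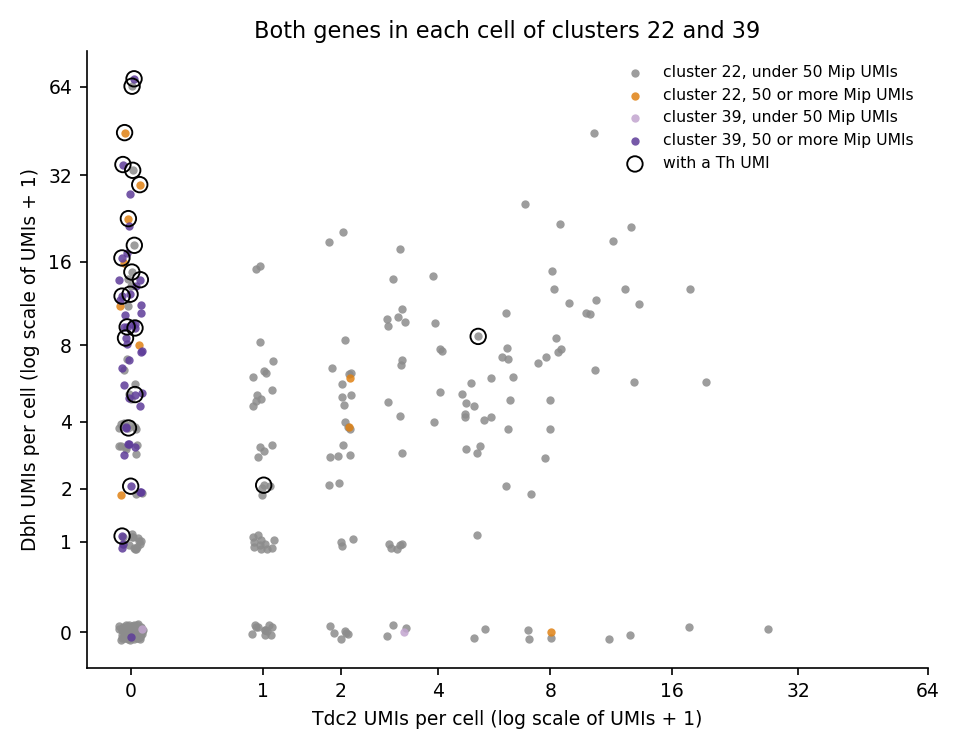
UMIs of *Tdc2* and *Dbh* in each of the 324 cells of clusters 22 and 39 (log scale of UMIs + 1, points shifted at random by a small amount), coloured by cluster and by the UMIs of the peptide gene *Mip*, with a ring around cells with a *Th* UMI. Cells of cluster 39 and cells with *Th* lie along the axis without *Tdc2*, except 1 cell of cluster 39 with 3 *Tdc2* UMIs and 2 ringed cells of cluster 22.

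To see which other genes went with *Tdc2*, UMIs were summed per library over the 117 cells with *Dbh* and *Tdc2* (7, 11, 38, 36 and 25 cells) and the 100 cells with *Dbh* and no *Tdc2* (9, 9, 28, 21 and 33 cells). Several neuropeptide genes were higher in the sums of the cells without *Tdc2*. *Mip*, which encodes myoinhibitory peptides, had 31224, 52427, 47959, 54270 and 74976 CPM in them against 24, 16.6, 113, 2567 and 226 CPM in the cells with *Tdc2*. The groups did not overlap, and the log2 difference was -8.54 (SE 0.83, edgeR quasi-likelihood test, adjusted p = 6.2e-05). *AstB*, a second gene of allatostatin B type peptides, was lower beside *Tdc2* by as much (log2 -8.67, SE 0.83, adjusted p = 5.7e-05, 5 of 5 libraries). *Proc*, the gene of proctolin, fell by 3.54 on the log2 scale (14657 ± 10537 against 1884 ± 1808 CPM), the RYamide gene *RYa* (evm.TU.CTG-1474.2) by 5.50 and the FMRFamide gene *FMRFa* (evm.TU.CTG-33.21) by 5.36, each in 5 of 5 libraries. A second *RYa* gene (evm.TU.CTG-422.1) and *AstCCC* were lower in 4 of 5 libraries. The precursors that the study predicts are nearly identical for *Mip* and *AstB* and identical for both *RYa* genes. Such copies are counted apart here but need not be separate observations.

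The enzyme list went the same way where it could be tested. *Ddc* had 24, 49.7, 46.8, 16.2 and 8.38 CPM in the cells with *Tdc2* and 121, 70.2, 274, 193 and 113 CPM in those without, so every value without *Tdc2* lay above every value with it. The log2 difference was -3.01 (SE 0.32, adjusted p = 1.2e-04 by edgeR, 0.0032 by its newer form). *Th* had 4 UMIs in the cells with *Tdc2*, all in male replicate 1, and 209 in those without (0, 1, 30, 129 and 49 UMIs), too few for the filter on low counts. *Vmat* had 14 against 6 UMIs, or 22.8 ± 9.08 against 4.56 ± 4.66 CPM (SD, n = 5), and was higher beside *Tdc2* in 5 of 5 libraries, also without a test. *Trh* had 2 against 0 UMIs. *Gad1*, which encodes glutamate decarboxylase for GABA synthesis, did not pass (log2 0.44, SE 0.75, adjusted p = 0.877).

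In all, the edgeR test called 122 of 2319 genes (5.26%) between these cells, 46 higher (1.98%) and 76 lower (3.28%) in the cells with *Tdc2*, *Tdc2* itself among the former. Of 71 neuropeptide genes listed, 17 were tested, of which 2 were higher and 8 lower beside *Tdc2*, with a median log2 difference of -1.70 against 0.00 over all genes tested. The 2 higher genes were those that the study names *ETH*, after ecdysis triggering hormone (log2 1.87, SE 0.30, 4 of 5 libraries), and *PK*, after pyrokinins (log2 4.05, SE 0.72, 4 of 5 libraries). *PK* rested on 16907 CPM in male replicate 2 against 49.7 to 1475 CPM in the other libraries. The listed peptide genes are precursors predicted by the study, which puts several under the name *PK*. Whether each encodes such peptides was not tested here. Among other genes higher beside *Tdc2* were *AcCoAS_S5*, named as an acetyl-CoA synthetase (469 ± 132 against 165 ± 56.7 CPM), and *cpx_S1*, named for complexin, which regulates vesicle fusion (386 ± 177 against 174.4 ± 92.4 CPM), both in 5 of 5 libraries. *ATK_S1*, *P5I11_S1* and *CUT1_S2* were also higher in 5 of 5 libraries, and *RERG*, *Girdin* and *SPR_S1* in 4 of 5. Among genes with no name in the tables used, evm.TU.CTG-81.10 was higher in 5 of 5 libraries, with 744, 1144, 788, 800 and 595 CPM against 121, 281, 41.4, 79.8 and 90.5 CPM (log2 2.82, SE 0.25, adjusted p = 3.7e-05). *GLRA2_S8*, named for a glycine receptor subunit, and *Rgk3*, named for a small GTPase, were lower in 5 of 5 libraries (log2 -2.10 and -1.97).

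The cells without *Tdc2* differed in cluster and depth too. Of the 100, 40 were of cluster 39 and none of the 117 was, and their median depth was 6622 against 4864 UMIs. Within cluster 22 alone, 11 of 928 genes passed, and *Ddc*, *Mip* and *AstB* did not pass the filter on low counts. The newer form of the edgeR fit, run after the data were seen, called 42 genes (1.81%), 11 higher (0.474%) and 31 lower (1.34%), all among the 122, and of the named genes above it called *Mip*, *AstB*, both *RYa* genes, *Proc*, *FMRFa*, *AstCCC*, *Ddc*, *GLRA2_S8*, *Rgk3* and *AcCoAS_S5*. Without female replicate 3, male replicate 1 or male replicate 2 the count fell to 35, 34 and 62 genes, and *Ddc* did not pass the filter without either of the first 2 of these. Glial markers summed to between 19.5 and 82.9 CPM with *Tdc2* and between 0 and 45.3 CPM without, with *moody* at 0 in both. Hemocyte markers summed to between 11.7 and 226 CPM and between 0 and 35.0 CPM, with 1 of 3 *Hml* copies at 0 in each group and 1 of 2 *NATT4* copies at 0 without *Tdc2*, and fat body markers to between 344 and 495 CPM and between 353 and 920 CPM. The fat body sums include *FASN1*, which was lower in fat body cells than in neurons. The part of these markers in the differences was not tested.

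*Mip* and *Tdc2* were seldom rich in the same *Dbh* cell. At a limit of 50 *Mip* UMIs per cell, chosen after the values were seen, 63 of the 100 cells without *Tdc2* and 3 of the 117 cells with it were rich in *Mip*, against 1 of 1181 hemocytes. By library they were 3 of 9, 3 of 9, 19 of 28, 17 of 21 and 21 of 33 of the cells without *Tdc2*. The *Mip*-rich cells comprised 40 of cluster 39, 7 of cluster 22 and 16 of other clusters, of which 7 were called doublets. The cells of cluster 22 with *Dbh* and no *Tdc2* had a median of 0 *Mip* UMIs. *Ddc* followed the peptide, with 48 of the 52 *Ddc* cells among the *Mip*-rich cells, and *Th* was found in 17 of the 63 and in 5 of the other 37.

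**Figure D5:**
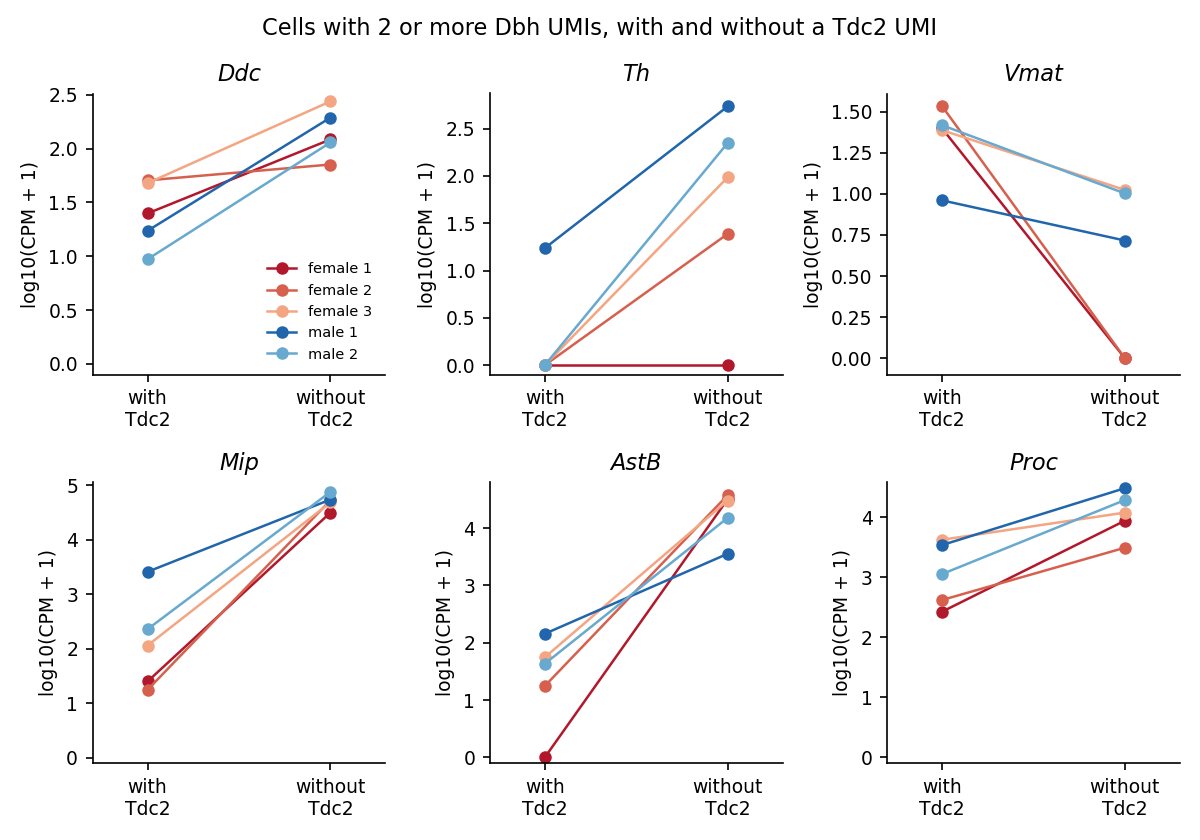
Level of 6 genes as log10(CPM + 1) in cells with at least 2 *Dbh* UMIs, with (left) and without (right) a *Tdc2* UMI, each line joining the sums of 1 library. *Ddc*, *Mip*, *AstB* and *Proc* were lower beside *Tdc2* in 5 of 5 libraries and *Th* in 4, while *Vmat* was higher beside *Tdc2* in 5 of 5.

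Cells with both octopamine genes were then set against cells with neither. The 138 cells with both (10, 18, 42, 41 and 27 by library), of which 126 lay in cluster 22, carried more *Vmat* and *Gad1* and less *VAChT* than the 30720 cells with neither. *Vmat* had 33.3, 27.6, 23.8, 7.65 and 24.4 CPM against 1.16, 0.234, 1.25, 0.792 and 0.227 CPM, a log2 difference of 4.72 (SE 0.62, edgeR adjusted p = 4.1e-05, all by the newer form of the fit), and was found in 17 of the 138 cells. *VAChT*, the vesicular acetylcholine transporter, had 3 UMIs in the cells with both genes and 3125 in the others, a ratio of levels of 0.13 (95% counting interval 0.0267 to 0.379), and was lower in 5 of 5 libraries (edgeR adjusted p = 0.0014 by the newer form). The dopamine enzymes did not pass: *Th* had 3.06 ± 6.84 against 3.77 ± 2.03 CPM and *Ddc* 23.5 ± 14.4 against 25.4 ± 5.90 CPM. Of the 4 pathway genes listed, 3 were tested and *Vmat* alone was called.

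*Gad1* had 584, 643, 378, 42.1 and 682 CPM in the cells with both genes against 26.7, 28.8, 28.5, 23.8 and 35.4 CPM (log2 3.57, SE 0.35, edgeR adjusted p = 1.4e-06, all by the newer form), but its UMIs came from 13 of the 138 cells. The unnamed gene evm.TU.CTG-1360.9 was the most regular companion, with a UMI in 138 of 138 cells with both genes and in 680 of 30720 with neither (2955 ± 621 against 7.71 ± 1.84 CPM, log2 8.45, edgeR adjusted p = 1.1e-16, both by the newer form). *VAT1L_S3*, named for a vesicle amine transport protein homologue, had 366 ± 146 against 99.5 ± 44.2 CPM, *cib_S2*, named for the actin-binding protein ciboulot, 1009 ± 125 against 368 ± 29.5 CPM, and *AcCoAS_S5* 448 ± 103 against 228 ± 43.2 CPM, each higher in 5 of 5 libraries. *YD541_S1* and *CAV1* were also higher in 5 of 5, and *ETH* in 4 of 5. *Relaxin-like* and a gene of the *CHH/ITP* family were called by the main fit but higher in only 2 and 3 of 5 libraries, and the newer form did not call them.

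Neuropeptide genes were mostly lower than in the pooled cells with neither gene, which were drawn from the whole brain. No other single cluster of neurons was compared. A level below the pool therefore need not set the cells with both genes apart from other kinds of neurons. Of 71 listed, 54 were tested, and 41 were lower and 3 higher in the cells with both genes, with a median log2 difference of -2.70 against -0.15 over all genes tested. *NPF*, *GnRH* and *AstC*, for neuropeptide F, gonadotropin-releasing hormone-like and allatostatin C peptides, had log2 differences of -6.26, -6.31 and -4.86 and were lower in 5 of 5 libraries. The share of cells with a UMI differed less than the level: *NPF* was found in 12.3% of the cells with both genes and in 10.7% of those with neither, at 19.9 ± 12.5 against 1465 ± 304 CPM. The test called 603 of 10437 genes (5.78%), 167 higher (1.6%) and 436 lower (4.18%), with *Tdc2* and *Dbh*, which defined the groups, among the higher ones. In this fit the spread between libraries was not estimated gene by gene but taken from a common trend with gene level. The newer form of the fit called 400 genes (3.83%), 111 higher (1.06%) and 289 lower (2.77%), while DESeq2 called 349, 169 higher and 180 lower. Of the 41 lower neuropeptide genes the newer form called 37. Glial markers summed to between 16.7 and 55.1 CPM in the cells with both genes and between 57.7 and 227 CPM in those with neither, hemocyte markers to between 10.2 and 219 CPM and between 40.54 and 112 CPM, fat body markers to between 337 and 487 CPM and between 296 and 891 CPM, and their part in the differences was not tested. These fat body sums also count *FASN1*.

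Male replicate 2 held the 2 genes in a ratio of its own. In cluster 22 the libraries had 63 *Tdc2* and 80 *Dbh* UMIs, 52 and 73, 285 and 320, 203 and 296, and, in male replicate 2, 75 and 468. The ratio of *Dbh* to *Tdc2* was thus 1.27, 1.40, 1.12 and 1.46 in 4 libraries and 6.24 in male replicate 2. The same held in cells with both genes of any cluster, at 1.97, 1.23, 1.14 and 1.2 against 3.85, and in cluster 22 without the cells that carried *Th*, at 1.27, 1.33, 1.01 and 1.16 against 4.36. In male replicate 2, *Tdc2* was below and *Dbh* above the other libraries in clusters 22 and 39: the log2 ratio to the mean of the other 4 was -1.39 for *Tdc2*, lower than for all but 28 of 1955 genes compared, and 1.12 for *Dbh*, exceeded by 6 genes, with a median of -0.11 over those genes. Male replicate 2 was picked for this ranking with its ratio known, so the ranks are a description. Its *Dbh* UMIs of cluster 22 came to 49.1% from cells with *Tdc2* and no *Th*, 30.1% from 3 cells with *Th* and 20.7% from cells with neither, whereas the cells with *Tdc2* gave 72.6% to 82.8% in the other libraries. Male replicate 2 kept 64.1% of its barcodes and had a median mitochondrial share of 26.4%, and female replicate 2, with 64.8% and 28.9%, had a ratio of 1.40.

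Neither gene passed the test between the sexes. In all kept cells the log2 difference of females to males was 0.35 for *Tdc2* (SE 0.50) and -1.03 for *Dbh* (SE 0.38, unadjusted p = 0.023), both with an edgeR adjusted p of 1.00, and 3 of 13875 genes were called (0.0216%). The difference in *Dbh* was -0.44 without male replicate 2 (unadjusted p = 0.382, edgeR) and -1.92 in cells with a mitochondrial share under 20%. In clusters 22 and 39, *Tdc2* had 412, 266 and 537 CPM in females and 499 and 163 CPM in males, with overlapping groups (log2 0.32, SE 0.40, edgeR adjusted p = 1.00). *Dbh* had 654, 409 and 786 CPM in females and 933 and 1516 CPM in males. Every male value of *Dbh* lay above every female value, but the difference did not pass (log2 -1.02, SE 0.36, unadjusted p = 0.014, edgeR adjusted p = 1.00), and an exact permutation test gave p = 0.1, the smallest that 10 splits of 3 against 2 libraries allow. There, 6 of 5157 genes were called (0.116%). Without male replicate 2 the difference in *Tdc2* turned to -0.26 and that in *Dbh* shrank to -0.56, while in cells with a mitochondrial share under 20% the latter was -1.66.

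The shares of cells with a UMI overlapped between the sexes. With each cell of clusters 22 and 39 thinned to 2000 UMIs, which left out 47 of 324 cells (6, 14, 9, 8 and 10 by library), *Tdc2* was found in 31.0%, 29.4% and 58.7% of female and 55% and 16.5% of male cells (39.7% ± 16.5, n = 3, against 35.7% ± 27.2, n = 2, exact permutation p = 0.9). *Dbh* was found in 44.8%, 52.9% and 60.3% against 73.3% and 49.5% (52.7% ± 7.75, n = 3, against 61.4% ± 16.9, n = 2, exact permutation p = 0.5). Without thinning the shares were 42.9%, 50%, 65.3%, 63.24% and 27.7% for *Tdc2* and 51.4%, 60.4%, 80.6%, 86.8% and 52.5% for *Dbh*. Thinned hemocytes had 0.299% and 0.150%.

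Some cells outside clusters 22 and 39 carried the genes at levels like those inside. Of all 30821 cells outside both clusters, 28352 were neurons and 1654 were called doublets. Of the 65 such cells with at least 2 UMIs of either gene, 60 were neurons, 14 were called doublets and 11 had both genes. The share of neurons was thus like that of all outside cells, while the share of called doublets was higher. Among them was a group in cluster 15 of female replicate 3, where 4 of 270 cells had 9, 21, 7 and 8 *Tdc2* UMIs, 3 of them with 11, 2 and 3 *Dbh* UMIs, and none of the 4 had *Th*, *Ddc* or *Vmat* or was called a doublet. The 436 cells of cluster 15 in the other libraries had 6 *Tdc2* and 5 *Dbh* UMIs together.

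Across the 40 clusters, the genes most like each of the 2 in mean log2(CPM + 1) were compared among 12289 genes, as a description, since the points share libraries and depth and rest mainly on clusters 22 and 39. *Vmat* had a Pearson correlation of 0.76 with *Tdc2* and *Dbh* one of 0.75, and the unnamed evm.TU.CTG-874.15 and evm.TU.CTG-1557.56-evm.TU.CTG-1557.57 led at 0.82 and 0.78. For *Dbh*, evm.TU.CTG-1360.9 led at 0.90, before *Tdc2* at 0.75, *Th* at 0.68, *Vmat* at 0.62, *Mip* at 0.60 and *AstB* at 0.58. *Ddc* ranked 24 for *Dbh* (0.47) and 425 for *Tdc2* (0.28), and *Trh* ranked 2230 and 2664.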

How the data were processed

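The authors ran Cell Ranger on their own gene models. Their deposited matrices hold raw, unnormalized UMI counts for each gene in each barcode called as a cell. Libraries were made with a Single Cell 3' kit. No genome position or sequence was used here, apart from the peptide precursors that the study printed. Gene names and cluster numbers come from the study's tables, of which a part was held.

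Cells with 500 to 60000 UMIs, at least 200 genes, a log10 gene to log10 UMI ratio above 0.7 and under 40% mitochondrial UMIs were kept. After removal of 159 named genes, 2000 variable genes gave 40 principal components, library differences were corrected, and the cluster numbers of 1998 cells were spread along links to 20 neighbours. Own doublet calls used simulated doublets.

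Counts were summed per library and scaled to 1000000 UMIs (CPM). Detection required 3 UMIs, and intervals cover counting error only. Sums were tested with edgeR 4.0.16 under R 4.3.3 (TMM, filterByExpr, glmQLFit, glmQLFTest, Benjamini-Hochberg at 0.05), with the library as a block between cell groups, and with DESeq2 1.42.0 as an alternative. Python 3.11.15 with SciPy 1.17.1 gave the exact tests. The fits were tested on simulated data. Expected numbers of cells came from 4 depth classes per library, with 0.5 added to observed and expected.

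Genes named were both members, the pathway genes, list genes that were called or counted, the 10 most like each member, and up to 10 per direction with the smallest p. Those without a name in the tables were printed to at most 2 in each direction. The members and lists were chosen with earlier results of these data known. Alternatives covered the test, normalization, filters, cluster numbers, doublets, UMI minimums, depth and each library left out.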

Additional observations from a re-analysis of the deposited data

Results flagged for a closer look

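The log2 ratio of *Dbh* to *Tdc2* UMIs in cluster 22 was 0.34, 0.49, 0.17, 0.54 and 2.64 in the 5 libraries of both sexes. Male replicate 2 was set apart by a gap that made up 0.848 of the whole range, above Dixon's 95% critical value of 0.71 for 5 values, while 9 other values checked in this way stayed below it, and chance sets apart about 1 in 20 such groups. The ratio itself was added after the data were seen, so this gap is a description and not an independent test. Without male replicate 2 the mean was 0.39 ± 0.17 (SD, n = 4), against 0.84 ± 1.02 with it. The cause was not tested.

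The barcodes that did not pass the limits on cells held 30 *Tdc2* and 96 *Dbh* UMIs, above the 3 UMIs that a count of 0 allows. These 9088 barcodes had 2.29 ± 2.01 and 5.08 ± 3.34 CPM of the 2 genes, against 6.72 ± 3.13 and 15 ± 8.21 CPM in kept cells (SD, n = 5).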

How the results depend on the processing

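Of 359 alternatives to 35 results, 301 kept the direction and the side of the threshold or stayed within the spread. Settings in which a single gene was not tested, or a cluster had no value, are not among the 359. No alternative made either gene pass between the sexes. The count of genes called between the sexes in all kept cells, 3 in the main test, was 36 with DESeq2, 1 without normalization factors, 7 without the filter, 39 with the replicate block, 1 at a mitochondrial share under 20%, 5 over every barcode, 5 with the newer edgeR form and 0 to 2 without 1 library. In clusters 22 and 39 it was 6, but 41 without the filter, 27 with the replicate block and 0 to 24 without 1 library. Replicate numbers 1 and 2 are shared by the sexes, but nothing in the labels pairs them, so the numbers are not read as pairs. Deviations of same-numbered libraries correlated at 0.000997 and 0.193. With 2 male libraries, whose deviations mirror each other, this check cannot decide on pairing. Replicate 2 of females and males kept 64.8% and 64.1% of barcodes, against 85.6% and 89.2% in replicate 1.

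Without 1 library the log2 sex difference of *Tdc2* ranged from -0.18 to 1.15 in all cells (negative without female replicate 3 or male replicate 2) and from -0.26 to 1.27 in the clusters, and that of *Dbh* from -1.46 to -0.44 and from -1.35 to -0.56. Without a male library the lone male library was assumed to vary like the females. The thinned share of *Tdc2* cells differed by -15.3 to 23.2 percentage points and that of *Dbh* cells by -20.6 to 3.24 (main 3.98 and -8.70).

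The *Dbh* cell comparison gave 122 genes, 224 without the filter, 33 without the library block, 42 with the newer form, 11 in cluster 22 alone and 34 to 118 without 1 library. Of the pathway genes 1 was called, 2 without the filter (*Th* with *Ddc*), and 0 with 1 UMI more, in cluster 22 alone or without female replicate 3 or male replicate 1 (range 0 to 1), where *Ddc* was not tested. *Gad1* turned negative with DESeq2 (-0.10), in cluster 22 alone (-1.10) and without male replicate 2 (range -0.56 to 1.36). Cells with both against neither gave 603 genes, 349 with DESeq2, 131 without the block and 400 with the newer form. There *Th* was -0.16 with DESeq2, -0.021 without the filter, -0.62 with 1 UMI more, -0.56 without doublets, -0.063 with the newer form and -0.061 against neurons alone, and *Ddc* was 0.29 with 1 UMI more and -0.49 to 0.10 without 1 library.

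*Tdc2* in cluster 39 was 34.2 CPM with the named genes kept, and *Dbh* in cluster 22 was 1181 CPM at a mitochondrial share under 20%, where the clusters held 67.1% of *Tdc2* and 76.6% of *Dbh* UMIs. The *Dbh* share was 75.5% by a vote of 5 neighbours and 90.9% with the named genes kept. *Tdc2* with *Ddc* reached 0.12 over all neurons and *Tdc2* with *Vmat* -0.28 at 2 UMIs of each. Own clusters gave no value for cluster 39, which none matched. The newer form, cluster 22 alone, neurons alone and the ratio of *Dbh* to *Tdc2*, over all libraries and without 1 library, were added after the data were seen. Few cells and UMIs limit cluster 39 and *Vmat*, *Th* and *Trh*.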

Other observations

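*Gad1* was carried by few cells of clusters 22 and 39, each with many UMIs. At a limit of 4 UMIs, chosen after the values were seen, 19 of 324 cells (2, 4, 5, 3 and 5 by library) held 98.5% of the *Gad1* UMIs of both clusters, and none was of cluster 39. Of these, 10 had both octopamine genes, 6 had *Dbh* alone and 3 were called doublets. These cells were deep, with a median of 7324 UMIs, where all cells of the 2 clusters had one of 4124. In other neurons 0.917% of cells reached that limit.

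On the assembly contigs that the identifiers name, the gene numbered after *Dbh* did not share its pattern, and the one after *Tdc2* had too few UMIs to tell. The gene after *Tdc2*, evm.TU.CTG-407.2, had 9 UMIs in all kept cells and 0 in clusters 22 and 39. The gene after *Dbh*, evm.TU.CTG-1462.2, had 17.1 ± 11.7 CPM in these clusters and 23.4 ± 6.86 CPM in other neurons (SD, n = 5). *MICU3* (evm.TU.CTG-407.10), a mitochondrial calcium uptake gene of the same contig as *Tdc2*, had 99.9 ± 12.2 and 130 ± 19.7 CPM.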
